A study of Mus musculus with 12 samples.

Results

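Imprinted genes, which are expressed mainly from the copy inherited from 1 parent, were followed through cells that lack the long noncoding RNA Hotair. The 34 genes lie outside the Dlk1-Dio3 domain and outside the growth network around H19 and Plagl1, and were taken by gene symbol from a table of 24132 symbols; each of the 34 had a row. RNA came from neonatal tail tip fibroblasts, connective tissue cells that grow out of a cut piece of tail. The cells were Hotair knockout, Hotair heterozygous or Hotair wild type, with 2 libraries for each genotype. All 3 genotypes had been backcrossed to C57BL6; the day of age, the number of animals and the passage were not given in the sources used here. The labels do not say whether the 2 libraries of a genotype came from separate animals or cultures, so every p-value below measures the spread between libraries, which may be technical. The 6 ChIP-seq libraries of the series are not analysed here.

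Imprinted genes sit in clusters, and most clusters are governed by a control region that is DNA methylated in the egg or in the sperm and keeps that mark in body cells. The unmethylated copy can drive a noncoding RNA that silences its neighbours, as Kcnq1ot1 does in the Kcnq1 domain. It can also simply act as an active promoter, as for retrogenes (intronless copies of other genes) such as Mcts2, Zrsr1 and Nap1l5. ZFP57, a zinc finger protein that protects the mark, binds the hexamer TGCCGC when it is methylated. Many imprinted genes keep the parental bias only in placenta or neurons, and RNA levels from a gene table do not show which parental copy was read.

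The promoter windows of Nnat, Peg12, Mcts2 and Snrpn are shown because these paternally expressed genes carry 3 different responses described below: highest in heterozygous cells (Nnat, Peg12), higher in knockout and heterozygous cells (Mcts2) and lower in both (Snrpn). Each window runs from 250 bases before to 50 bases after the annotated start (RefSeq, GRCm38.p6, another build than the mm9 of the expression table), is written 5′ to 3′ on the strand of the gene, and has TGCCGC or its reverse complement GCGGCA in capitals. Nnat, on the plus strand at chr2:157559828-157560127, starts inside the span of Blcap. Peg12 is on the minus strand at chr7:62464461-62464760. Mcts2, on the plus strand at chr2:152686898-152687197, starts inside the span of H13. Snrpn has 4 windows in the table, of which the one on the minus strand at chr7:60005150-60005449 is the only one with a match.
Nnat: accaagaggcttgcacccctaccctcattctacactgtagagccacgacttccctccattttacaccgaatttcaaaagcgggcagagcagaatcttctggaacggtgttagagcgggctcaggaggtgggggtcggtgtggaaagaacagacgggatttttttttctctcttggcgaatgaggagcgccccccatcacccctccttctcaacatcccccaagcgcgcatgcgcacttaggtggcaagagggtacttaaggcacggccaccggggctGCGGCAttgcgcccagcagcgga
Peg12: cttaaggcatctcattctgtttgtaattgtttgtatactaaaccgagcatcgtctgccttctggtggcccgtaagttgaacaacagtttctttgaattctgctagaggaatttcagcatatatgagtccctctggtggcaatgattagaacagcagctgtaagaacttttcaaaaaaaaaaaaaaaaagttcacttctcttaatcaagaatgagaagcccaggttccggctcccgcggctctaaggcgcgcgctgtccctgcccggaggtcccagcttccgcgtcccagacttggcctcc
Mcts2: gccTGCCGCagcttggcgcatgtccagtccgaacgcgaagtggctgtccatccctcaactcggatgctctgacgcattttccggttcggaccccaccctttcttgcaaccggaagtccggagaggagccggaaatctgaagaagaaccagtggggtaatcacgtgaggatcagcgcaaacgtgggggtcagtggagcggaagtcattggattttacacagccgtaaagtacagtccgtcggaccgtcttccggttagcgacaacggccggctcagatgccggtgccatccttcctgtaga
Snrpn: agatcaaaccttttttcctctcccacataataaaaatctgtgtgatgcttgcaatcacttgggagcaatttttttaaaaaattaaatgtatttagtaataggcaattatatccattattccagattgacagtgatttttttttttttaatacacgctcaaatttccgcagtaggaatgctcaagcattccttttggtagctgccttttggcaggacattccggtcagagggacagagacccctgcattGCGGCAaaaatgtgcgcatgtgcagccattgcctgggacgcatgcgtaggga
Searched on both strands with overlapping matches counted, the hexamer was in 9 of 38 windows of the 29 genes matched by symbol (23.7%), and in 11.6% of all 32851 windows of the same length. Besides Nnat, Mcts2 and Snrpn, the 9 windows belonged to Nap1l5 (2 matches), Copg2, Zim1, Osbpl5, Commd1 and Slc22a2. Nnat had 17, Peg12 12, Mcts2 25 and this Snrpn window 7 CG dinucleotides, against a median of 7 over all windows. Many other windows of the 29 genes were also above that median, as with 48 in a window of Ppp1r9a. The hexamer itself holds a CG, and some genes gave several windows. The shares of 23.7% and 11.6% were not matched for CG content, so they do not show an excess of the hexamer at imprinted genes. A match is a description of the letters and not a site of binding, and the windows were not tested against expression.

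The libraries held 48.1M and 46.0M read equivalents in knockout, 33.2M and 31.2M in heterozygous and 29.6M and 27.9M in wild-type cells, so low values rest on more reads in knockout. Hotair was at 0 in both knockout libraries, against 0.213 and 0.172 RPKM in heterozygous and 0.247 and 0.183 RPKM in wild-type cells. RPKM is a read number scaled to the length of the gene and the depth of the library. All 10 fibroblast markers (among them Col1a1, Pdgfra and Thy1) passed the filter (3 called higher and 7 lower in knockout against wild type), with summed levels of 3720 to 3750 RPKM in knockout, 4140 to 4240 RPKM in heterozygous and 4570 to 4590 RPKM in wild-type libraries. Macrophage markers, of which 6 of 10 passed the filter and 5 were called higher in knockout against wild type, summed to 52.4 to 52.7 RPKM in knockout, 7.38 to 8.33 RPKM in heterozygous and 8.97 to 10.3 RPKM in wild type. Neural and Schwann cell markers (6 of 10 above the filter) summed to 38.8 to 40.1 RPKM in knockout, 60.9 to 62.7 RPKM in heterozygous and 64.0 to 64.7 RPKM in wild type, with 1 called higher and 3 lower in knockout against wild type. Skeletal muscle markers (2 of 6 above the filter) summed to 161 to 162 RPKM in knockout, 159 to 163 RPKM in heterozygous and 245 to 246 RPKM in wild type, with Myod1 at 0 throughout. Nearly the whole sum was Acta1, which was called lower in knockout against wild type (158 and 159 RPKM in knockout, 244 and 245 RPKM in wild type), while the other one tested, Des, was called higher (3.22 and 2.81 RPKM in knockout, 1.04 and 1.23 RPKM in wild type); both were named after their values were seen. None of 7 keratinocyte, 5 endothelial and 6 trophoblast markers passed the filter, and Emcn and the placental gene Tpbpa were at 0 in every library. Over all rows tested, 40.6% were called higher and 26.6% lower in knockout against wild type. Among rows with a mean of 100 RPKM and over, 33.9% were called higher and 54.4% lower. The part of these cell types in the results below was not tested. In bulk RNA, fewer cells of a type and less RNA per cell cannot be told apart.

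Active genes made up 17 of the 34. These reached 1 RPKM in at least 2 of the 6 libraries, the filter for testing, and the other 17 did not. Differences are given as log2 differences of (RPKM + 1), which understate the change of low genes, with the standard error (SE) of a limma model fitted to all 10897 rows above the filter and Benjamini-Hochberg adjustment over all of them. In knockout against wild-type cells 6 of the 17 were called higher and 5 lower at an adjusted p under 0.05, where 40.6% of all rows were called higher and 26.6% lower (67.2% in either direction). In heterozygous against wild-type cells 7 were higher and 3 lower (35.5% and 17.1% of all rows, 52.6% together); without the second heterozygous or the first wild-type library 1 was lower. In knockout against heterozygous cells 2 were higher and 7 lower (26.4% and 25.4% of all rows, 51.8% together). The shares of the 17 lay near these backgrounds in the comparisons with wild type, which share the wild-type libraries. Nnat passed the filter only through the heterozygous libraries, so that its place in the counts against heterozygous cells was partly built in. It was 1 of the 7 higher in heterozygous against wild type and 1 of the 7 lower in knockout against heterozygous. The libraries of knockout and wild type did not overlap for 6 of the 17 that were higher and 6 that were lower in knockout (49.3% and 34.5% of all rows, 83.8% together). Those of heterozygous and wild type did not overlap for 11 higher and 4 lower (50.4% and 25.6%, together 76%). Those of knockout and heterozygous did not overlap for 5 higher and 7 lower (39.2% and 38.6%, together 77.8%). None of the 17 changed by 1 or more on the log2 scale in any of the 3 comparisons, against 282, 131 and 84 of all rows in the order given. The median difference of the 17 in knockout against wild type was 0.02, against 0.06 for all rows. The split by direction depended on scaling. In knockout against wild type it was 4 higher and 7 lower after quantile normalization and 5 and 8 after median scaling, where the share of higher calls over all rows was 46.7% and 47.2%, against 60.4% as reported. In heterozygous against wild type the split was 6 and 2 after quantile normalization and 6 and 6 after median scaling (51.1% and 45.5% of all calls higher, against 67.5% as reported).

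By parental copy, 8 of 13 paternally expressed genes passed the filter. Of these 8, 4 were higher and 1 lower in knockout against wild type (67.2% of all rows were called in either direction), 5 were higher and 1 lower in heterozygous against wild type (52.6%), and 1 was higher and 3 lower in knockout against heterozygous (51.8%). Nnat, 1 of the 5 and 1 of the 3, passed the filter only through the heterozygous libraries, so those counts were partly built in. None of the 6 genes grouped simply as maternally expressed passed it (Asb4, Klf14, Zim1, Kcnq1, Phlda2, Slc22a18). Of 8 genes with maternal expression known mainly from placenta, 3 passed (Cd81, Tssc4, Osbpl5), with 0 higher and 1 lower in each comparison with wild type. Of 7 genes imprinted in 1 tissue or isoform, 6 passed, with 2 higher and 3 lower in knockout against wild type. For these 6 the split was 2 and 1 in heterozygous against wild type and 1 and 4 in knockout against heterozygous. Over all rows 40.6% were called higher and 26.6% lower in knockout against wild type. The shares were 35.5% and 17.1% in heterozygous against wild type and 26.4% and 25.4% in knockout against heterozygous. The split of the paternally expressed genes in knockout against wild type became 2 higher and 3 lower after quantile normalization and 3 and 1 after median scaling. The groups by parental copy were not tested against each other.

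**Figure D1:**
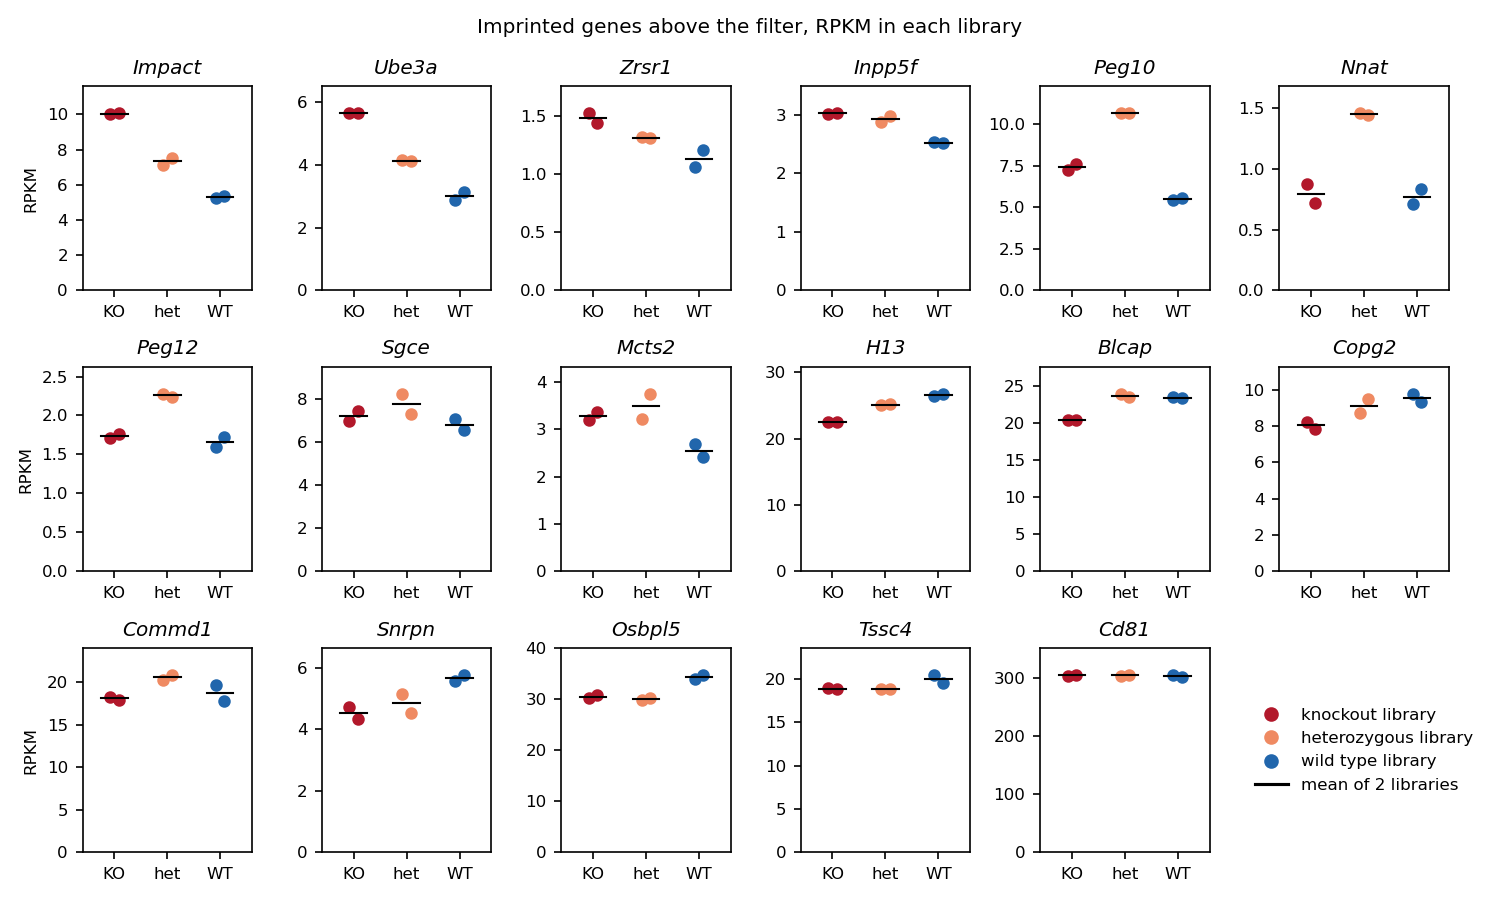
RPKM (vertical axis, from 0) of the 17 imprinted genes above the filter in knockout, heterozygous and wild-type tail tip fibroblasts, with a point for each library and a line at the mean of 2 libraries. Impact and Ube3a step down over the genotypes, Peg10, Nnat and Peg12 are highest in heterozygous cells, and Cd81 is level near 300.

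Impact and Ube3a, from separate chromosomes, were highest in knockout, intermediate in heterozygous and lowest in wild-type cells. Impact, a paternally expressed gene whose protein restrains the amino acid sensor kinase GCN2, had 10 and 10.1 RPKM in knockout libraries, 7.14 and 7.55 RPKM in heterozygous libraries and 5.26 and 5.34 RPKM in wild-type libraries. The 3 genotypes did not overlap. Its mean in knockout was 1.90 times that in wild type (log2 difference 0.82 ± 0.04 SE, limma adjusted p = 3.46e-06, n = 2 libraries each) and in heterozygous cells 1.39 times (0.41 ± 0.04, adjusted p = 0.000216). Ube3a, the E3 ubiquitin ligase that is maternally expressed in neurons and read from both copies in most other cells, had 5.66 and 5.65 RPKM in knockout, 4.15 and 4.12 RPKM in heterozygous and 2.89 and 3.12 RPKM in wild-type libraries. These groups did not overlap either. The knockout mean was 1.88 times the wild-type mean (0.73 ± 0.05, limma adjusted p = 9.51e-06) and the heterozygous mean 1.38 times (0.36 ± 0.05, adjusted p = 0.000636). Knockout against heterozygous, the step was 0.41 ± 0.04 for Impact (adjusted p = 0.000225) and 0.37 ± 0.05 for Ube3a (limma adjusted p = 0.000547), and these were the 2 genes called higher in that comparison. Both genes kept all 3 calls in every alternative run, quantile normalization and each left-out library included. An antisense RNA crosses Ube3a in neurons, and antisense reads cannot be told apart from Ube3a because the use of strand in counting was not given in the sources used here.

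The stepwise order without overlap was shared by Zrsr1 and Inpp5f, so that 4 of the 17 showed it, against 22.7% of all rows tested. Zrsr1, a retrogene encoding a splicing factor related to U2af1, had 1.53 and 1.44 RPKM in knockout, 1.32 and 1.31 RPKM in heterozygous and 1.06 and 1.21 RPKM in wild-type libraries. It was called in knockout against wild type (0.22 ± 0.06, limma adjusted p = 0.0119). The call ended without the first knockout library (adjusted p = 0.076), without the first wild-type library (0.0639) and after median scaling (0.0687), and the difference turned to -0.00673 after quantile normalization. Inpp5f encodes an inositol phosphatase, of which a brain isoform from an internal promoter is paternally expressed; the row does not separate isoforms. It had 3.02 and 3.04 RPKM in knockout, 2.88 and 2.99 RPKM in heterozygous and 2.53 and 2.52 RPKM in wild-type libraries. Inpp5f was higher than wild type in knockout (0.19 ± 0.04, limma adjusted p = 0.00632) and in heterozygous cells (0.16 ± 0.04, adjusted p = 0.0206), and both calls were lost after quantile normalization (-0.02 and 0.02). The heterozygous call was also lost without the second heterozygous (adjusted p = 0.0909), the first wild-type (0.0586) or the second wild-type library (0.0619) and after median scaling (0.15).

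In 5 of the 17 genes both heterozygous libraries were above all 4 others (18.1% of all rows): the paternally expressed Peg10, Peg12 and Nnat, and Commd1 and Blcap, which are described with their partner genes below. Nnat passed the filter only through its heterozygous libraries, so that this order was partly built in for it. Peg10, a gene derived from a retrotransposon and needed for the placenta, had 7.27 and 7.59 RPKM in knockout, 10.7 and 10.7 RPKM in heterozygous and 5.46 and 5.59 RPKM in wild-type libraries. The heterozygous mean was 1.93 times the wild-type mean (0.84 ± 0.04, limma adjusted p = 5.43e-06), the largest difference of any of the 17 in the 3 comparisons. Knockout cells lay between, above wild type (0.37 ± 0.04, limma adjusted p = 0.000128) and below heterozygous (-0.47 ± 0.04, adjusted p = 0.000104). Sgce, the sarcoglycan gene that starts head to head with Peg10 from the same control region, had 7.0 and 7.48 RPKM in knockout, 8.27 and 7.31 RPKM in heterozygous and 7.11 and 6.56 RPKM in wild-type libraries. Sgce passed no test, and its groups overlapped between knockout and each other genotype. Its differences were 0.07 ± 0.07 for knockout against wild type (limma adjusted p = 0.353) and 0.16 ± 0.07 for heterozygous against wild type (adjusted p = 0.0687; 0.24 with an adjusted p of 0.026 without the second heterozygous library). The RPKM of Peg10 was 104% and 101% of that of Sgce in knockout, 129% and 146% in heterozygous and 76.8% and 85.2% in wild-type libraries, so the pair did not keep a fixed proportion.

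Nnat and Peg12, whose promoter windows are printed above, were also highest in heterozygous cells. Nnat, which encodes the small membrane protein neuronatin, had 0.874 and 0.718 RPKM in knockout, 1.46 and 1.44 RPKM in heterozygous and 0.711 and 0.829 RPKM in wild-type libraries. It passed the filter only through the heterozygous libraries, so that some difference from them was built in. The heterozygous mean was 1.88 times the wild-type mean (0.47 ± 0.07, limma adjusted p = 0.00101), and knockout cells were below heterozygous (-0.45 ± 0.07, adjusted p = 0.00122). Between knockout and wild type Nnat differed by 0.02 ± 0.07 (limma adjusted p = 0.8), and quantile normalization turned this to -0.27 (adjusted p = 0.00818). Peg12, a retrogene related to the Wnt pathway regulators Frat1 and Frat2, had 1.71 and 1.76 RPKM in knockout, 2.28 and 2.24 RPKM in heterozygous and 1.59 and 1.73 RPKM in wild-type libraries. Peg12 was higher in heterozygous than in wild-type cells (0.30 ± 0.05, limma adjusted p = 0.00258) and lower in knockout than in heterozygous cells (-0.26 ± 0.05, adjusted p = 0.00496). Its difference between knockout and wild type was 0.04 ± 0.05 (limma adjusted p = 0.506), and quantile normalization turned it to -0.19 (adjusted p = 0.0145). The related genes Frat1 and Frat2 stayed between 0.0643 and 0.263 RPKM in all libraries. Peg10, Peg12 and Nnat were the 3 of the 17 called higher in heterozygous cells than in both other genotypes, against 8.64% of all rows. Without Nnat the count was 2 of 16.

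**Figure D2:**
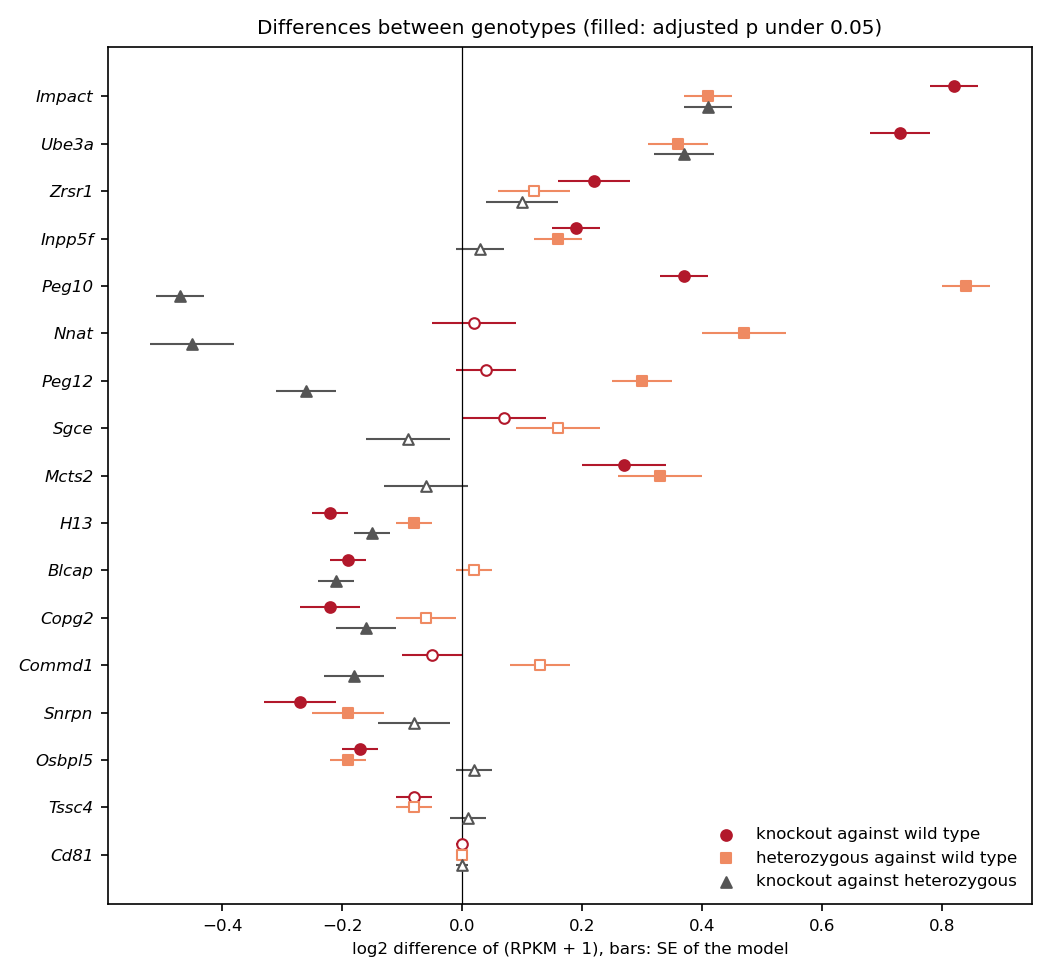
Log2 differences of (RPKM + 1) between genotypes (horizontal axis) for the 17 genes (rows), with bars for the SE of the model and filled symbols for an adjusted p under 0.05. Circles stand for knockout against wild type, squares for heterozygous against wild type and triangles for knockout against heterozygous; Peg10 and Nnat have squares far right and triangles far left of 0.

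Mcts2 and its host gene H13 moved in opposite directions in knockout cells. Mcts2, a copy of the translation factor gene Mcts1 inside H13, had 3.20 and 3.36 RPKM in knockout, 3.21 and 3.75 RPKM in heterozygous and 2.69 and 2.41 RPKM in wild-type libraries. It rose in knockout (0.27 ± 0.07, limma adjusted p = 0.0111) and in heterozygous cells (0.33 ± 0.07, adjusted p = 0.00633) against wild type. The knockout call was lost without the second knockout library (adjusted p = 0.064), without the second wild-type library (0.0639) and after quantile normalization (0.407), where the heterozygous call was lost as well (0.0573). H13, the host gene, encodes signal peptide peptidase and had 22.6 and 22.6 RPKM in knockout, 25.1 and 25.2 RPKM in heterozygous and 26.5 and 26.8 RPKM in wild-type libraries. It fell in knockout against wild type (-0.22 ± 0.03, limma adjusted p = 0.000255) and was the 1 gene of the 17 that was lowest in knockout, intermediate in heterozygous and highest in wild type without overlap (12.2% of all rows were). In heterozygous against wild type its difference of -0.08 ± 0.03 (limma adjusted p = 0.0465) lost its call without any single one of the 6 libraries (adjusted p from 0.0811 to 0.147), after quantile normalization (0.0523), with a replicate block (0.067), without the variance trend (0.0739) and with only the 2 genotypes compared in the fit (0.0799). Mcts2 is close in sequence to Mcts1, and the Mcts2 row stood at 28.9% and 30.9% of the Mcts1 row in knockout, 26.4% and 29.7% in heterozygous and 28% and 23.8% in wild-type libraries. Mcts1 itself was higher in knockout than in wild type (0.14 ± 0.04, limma adjusted p = 0.0166), and since reads shared between both copies were not tested for, the values of Mcts2 are uncertain.

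Zrsr1 lies inside Commd1, a gene of copper handling and NF-kappa-B control with a maternal bias reported in brain. Commd1 had 18.3 and 17.9 RPKM in knockout, 20.3 and 20.9 RPKM in heterozygous and 19.7 and 17.8 RPKM in wild-type libraries, with overlap between knockout and wild type. It was lower in knockout than in heterozygous cells (-0.18 ± 0.05, limma adjusted p = 0.0185), a call lost without the second heterozygous (adjusted p = 0.0858), the first knockout (0.0561) or the second knockout library (0.0887) and without a filter (0.0513). Between knockout and wild type it differed by -0.05 ± 0.05 (limma adjusted p = 0.418), and the sign turned to 0.02 without the first wild-type library; it was called lower without the second one (adjusted p = 0.0458) and after median scaling (0.045). Heterozygous against wild type it differed by 0.13 ± 0.05 (limma adjusted p = 0.0557; 0.0104 without the first wild-type library). The related gene Zrsr2 stood at 2.05 and 1.99 RPKM in knockout, 1.92 and 1.75 RPKM in heterozygous and 1.62 and 1.94 RPKM in wild-type libraries and was not called in knockout against wild type (0.12 ± 0.07, limma adjusted p = 0.156). Sharing of reads between Zrsr1 and Zrsr2 was not tested.

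Blcap, the host of Nnat, encodes a small protein first studied in bladder cancer and is maternally biased in brain. It had 20.5 and 20.4 RPKM in knockout, 24.0 and 23.5 RPKM in heterozygous and 23.5 and 23.4 RPKM in wild-type libraries. Blcap fell in knockout against wild type (-0.19 ± 0.03, limma adjusted p = 0.000862) and against heterozygous cells (-0.21 ± 0.03, adjusted p = 0.00092), while heterozygous and wild type differed by 0.02 ± 0.03 (limma adjusted p = 0.556). Nnat stood at 4.25% and 3.52% of Blcap in knockout, 6.07% and 6.12% in heterozygous and 3.03% and 3.55% in wild-type libraries, and the heterozygous libraries were above all others.

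Snrpn, the splicing protein gene whose promoter region holds the control region of its domain, was lower in knockout and heterozygous cells. It had 4.72 and 4.34 RPKM in knockout, 5.15 and 4.53 RPKM in heterozygous and 5.55 and 5.77 RPKM in wild-type libraries. Its difference was -0.27 ± 0.06 in knockout (limma adjusted p = 0.00699) and -0.19 ± 0.06 in heterozygous cells (adjusted p = 0.0379) against wild type. The knockout call ended without the second knockout library (adjusted p = 0.0506), and the heterozygous call without the second heterozygous (0.188), the first wild-type (0.0741) or the second wild-type library (0.141) and without a filter (0.0973). Snurf, read from the same transcript as Snrpn, was at 5.65 and 5.22 RPKM in knockout against 6.69 and 6.95 RPKM in wild type (-0.28 ± 0.06, limma adjusted p = 0.00549) and is not a separate observation. Snrpb, a related splicing protein gene on another chromosome, was also lower (-0.20 ± 0.04, limma adjusted p = 0.0021), at 76.0 and 79.8 RPKM in knockout and 91.4 and 87.6 RPKM in wild type, and Snrpn stayed between 5.22% and 6.59% of it in all 6 libraries. Sharing of reads between them was not tested. In the same domain Ube3a rose, Peg12 was highest in heterozygous cells, and Ndn, a growth-restraining paternally expressed neighbour, was lower in knockout than in wild type (-0.38 ± 0.03, limma adjusted p = 1.77e-05), so the domain did not move as 1 block.

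Copg2, a coat protein gene next to Mest, was lower in knockout against wild type (-0.22 ± 0.05, limma adjusted p = 0.00568), with 8.23 and 7.87 RPKM in knockout, 8.72 and 9.50 RPKM in heterozygous and 9.79 and 9.35 RPKM in wild-type libraries. Against heterozygous cells its knockout difference was -0.16 ± 0.05 (limma adjusted p = 0.0324), which lost its call without the second heterozygous (adjusted p = 0.164), the first knockout (0.0646) or the second knockout library (0.16) as well as with a replicate block (0.0519) and without a filter (0.0702). Heterozygous against wild type, Copg2 differed by -0.06 ± 0.05 (limma adjusted p = 0.316; 0.0434 after median scaling). Mest, whose longest transcripts run into Copg2 from the other strand, was at 9.98 and 9.79 RPKM in knockout, 6.68 and 6.76 RPKM in heterozygous and 2.72 and 2.12 RPKM in wild-type libraries, the opposite direction to Copg2. Since the use of strand in counting was not given in the sources used here, reads from an overlap of the pair cannot be told apart.

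The Kcnq1 domain held 9 of the 34 genes, of which only Cd81, Tssc4 and Osbpl5 passed the filter; these lie toward its edges and are maternally expressed in placenta. Osbpl5, an oxysterol-binding protein gene, had 30.2 and 30.8 RPKM in knockout, 29.8 and 30.2 RPKM in heterozygous and 33.9 and 34.8 RPKM in wild-type libraries. It was lower in knockout (-0.17 ± 0.03, limma adjusted p = 0.00129) and in heterozygous cells (-0.19 ± 0.03, adjusted p = 0.00124) than in wild type. Tssc4, a neighbour of Cd81, had 19 and 18.8 RPKM in knockout, 18.8 and 18.9 RPKM in heterozygous and 20.5 and 19.5 RPKM in wild-type libraries. Its difference of -0.08 ± 0.03 against wild type was not called in knockout (limma adjusted p = 0.0834; 0.042 without the second wild-type library and 0.00454 after median scaling) or in heterozygous cells (adjusted p = 0.0746; 0.0448 without the second wild-type library and 0.00682 after median scaling). Cd81, a tetraspanin of the cell surface and the most abundant of the 34 genes by RPKM, had 303 and 305 RPKM in knockout, 303 and 305 RPKM in heterozygous and 305 and 301 RPKM in wild-type libraries. The groups overlapped, and the differences were under 0.01 in size with an SE of 0.01. Their sign depended on scaling, with 0.07 after quantile normalization (limma adjusted p = 0.000425) and -0.08 after median scaling (adjusted p = 0.00206) in knockout against wild type.

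The other members of the Kcnq1 domain stayed below the filter, and Slc22a18 came closest to it. Slc22a18, a transporter of organic cations, had 0.930 and 0.790 RPKM in knockout, 0.433 and 0.326 RPKM in heterozygous and 0.362 and 0.408 RPKM in wild-type libraries, which corresponds to 73.2 and 59.5 reads in knockout, 23.6 and 16.6 in heterozygous and 17.6 and 18.6 in wild type. The knockout libraries were above all 4 others and their mean was 2.23 times the wild-type mean. In the fit without a filter the difference was 0.42 ± 0.06 (limma adjusted p = 0.00334). Kcnq1ot1, the noncoding RNA that silences the domain on the paternal copy, had 0.0314 and 0.0306 RPKM in knockout, 0.0159 and 0.0165 RPKM in heterozygous and 0.00891 and 0.00772 RPKM in wild-type libraries. Since the transcript spans 83438 bases in the length that the values give, these levels rest on 126 and 118 reads in knockout, 44 and 43 in heterozygous and 22 and 18 in wild type, and the 3 groups did not overlap. The knockout mean was 3.73 times the wild-type mean, although on the log2 scale with 1 added the difference in the fit without a filter was 0.03 ± 0.01 (limma adjusted p = 0.0533). Kcnq1ot1 is unspliced and antisense to Kcnq1, and in RNA selected for poly(A) tails its reads cannot be told apart from unspliced RNA of other genes there. Kcnq1, a potassium channel gene, rested on 2 to 5 reads in each library, at 0.0137 and 0.0214 RPKM in knockout, 0.0494 and 0.0316 RPKM in heterozygous and 0.0552 and 0.0471 RPKM in wild type. In the fit without a filter it was called lower in knockout than in wild type (-0.05 ± 0.01, limma adjusted p = 0.046). That call rests on 2 and 3 reads in knockout and 5 and 4 in wild type, too few to settle a difference. A link between the levels of Kcnq1 and Kcnq1ot1 was not tested. Phlda2, which restrains placental growth, rested on 0 to 5 reads in each library, Tspan32, a tetraspanin, on 0 to 4, and Ascl2, a transcription factor of the trophoblast, on 1 to 6.9, at no more than 0.227, 0.0737 and 0.0983 RPKM. A difference in these was not detectable at this depth.

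**Figure D3:**
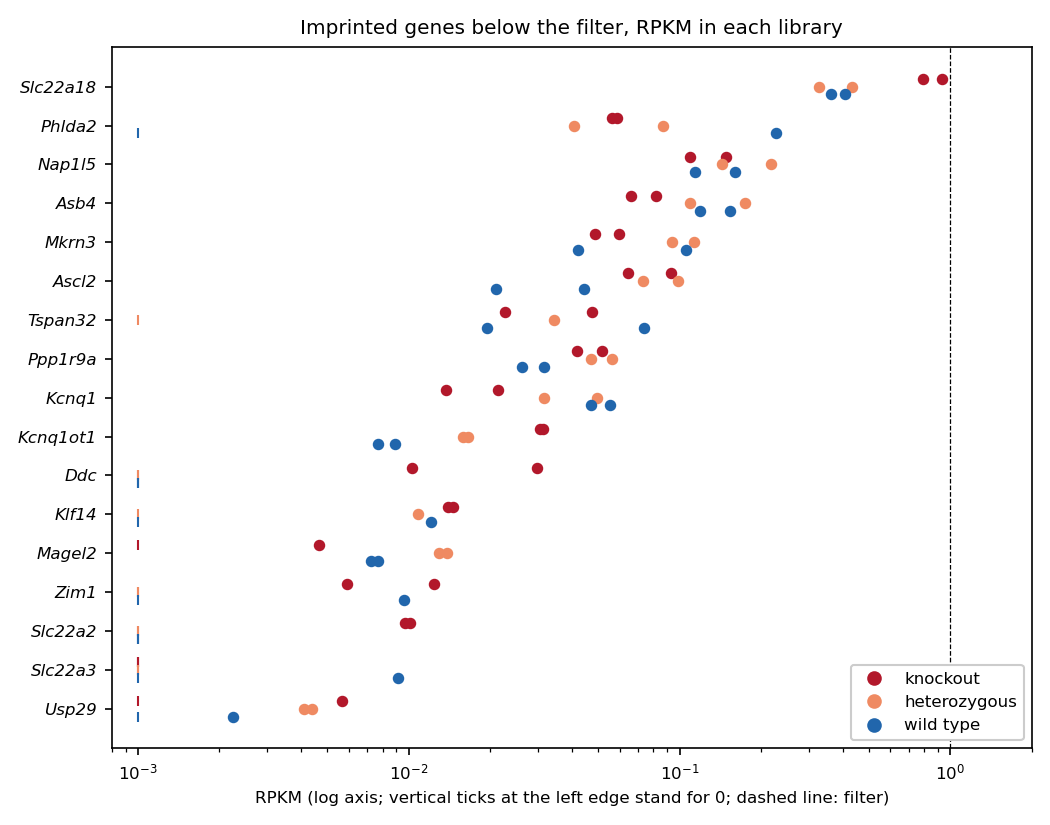
RPKM of the 17 imprinted genes below the filter (rows) in each library on a log axis, with knockout above heterozygous above wild type in each row, small ticks at the left edge for values of 0 and a dashed line at the filter of 1 RPKM. Slc22a18 and Kcnq1ot1 have both knockout points to the right of all others, and most other genes rest on a few reads.

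Of the 17 genes below the filter, 12 stayed under 0.1 RPKM in every library. In the Peg10 domain, Asb4, which encodes a subunit of a ubiquitin ligase, had 0.0817 and 0.0659 RPKM in knockout, 0.109 and 0.175 RPKM in heterozygous and 0.153 and 0.119 RPKM in wild-type libraries. The knockout libraries were below all others, on 12.9 and 10 reads, with a limma adjusted p of 0.107 in the fit without a filter. Ppp1r9a, an actin-binding protein gene of neurons, stayed between 0.0261 and 0.0563 RPKM and its wild-type libraries were the lowest (limma adjusted p = 0.179 for knockout against wild type). Nap1l5, a retrogene in Herc3 and the holder of 2 copies of the hexamer, ranged from 0.109 to 0.218 RPKM on 6.0 to 12.9 reads, with all 3 genotypes overlapping. Herc3, its host, was at 1.73 and 1.52 RPKM in knockout against 1.27 and 1.36 RPKM in wild type (0.18 ± 0.06, limma adjusted p = 0.0374).

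Genes known mainly from brain were nearly silent. Mkrn3, a ubiquitin ligase gene that restrains puberty, ranged from 0.0422 to 0.113 RPKM on 3.0 to 8.9 reads. Magel2, of the MAGE family in the Snrpn domain, had 0 to 2 reads in each library. Usp29, a deubiquitinase gene of the Peg3 domain, and Zim1, a maternally expressed zinc finger gene there, had at most 2 reads in any library. Peg3 itself, the zinc finger gene of that domain, stood at 0.926 and 0.892 RPKM in knockout, 0.719 and 0.700 RPKM in heterozygous and 0.338 and 0.430 RPKM in wild-type libraries. These Peg3 groups did not overlap, and the gene was below the filter.

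Klf14, a maternally expressed transcription factor gene known from fat tissue, had 0 to 2 reads in each library. The organic cation transporters Slc22a2 and Slc22a3 of the Igf2r domain, maternally expressed in placenta, had at most 1 read in any library. Slc22a2 was at 0 in heterozygous and wild-type libraries, where a count of 3 over the group allows up to 0.022 and 0.0246 RPKM, and Slc22a3 was at 0 in knockout and heterozygous libraries (up to 0.00909 and 0.0133 RPKM). Igf2r, the maternally expressed receptor that gives the domain its name, was active, at 19.2 and 19 RPKM in knockout and 23.1 and 23.3 RPKM in wild type (-0.27 ± 0.03, limma adjusted p = 0.000131). Ddc, the dopa decarboxylase gene next to Grb10, had 3.0 and 1.0 reads in knockout and none in heterozygous or wild-type libraries, where up to 0.0221 and 0.0248 RPKM would be allowed. Grb10, an adaptor of growth factor receptors, was at 63.8 and 63.4 RPKM in knockout and 56.4 and 58.2 RPKM in wild type (0.15 ± 0.02, limma adjusted p = 0.000988).

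The direction of the called genes varied with their level, as it did over the whole table. Among rows with a mean under 3 RPKM, the median difference of knockout against wild type was 0.23 and 55.3% were called higher, with 10.4% lower. From 3 to 10 RPKM the median was 0.07, from 10 to 30 RPKM it was -0.03 and from 30 to 100 RPKM -0.11. The 7 imprinted genes at 3 to 10 RPKM (Peg10, Sgce, Copg2, Snrpn, Ube3a, Mcts2 and Impact) had a median of 0.27, and the 4 at 10 to 30 RPKM (Tssc4, Commd1, H13 and Blcap) a median of -0.13. Among the 4 under 3 RPKM (Peg12, Zrsr1, Nnat and Inpp5f) the median was 0.12, below that of rows at the same level. The part of expression level in the individual calls was not tested.

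**Figure D4:**
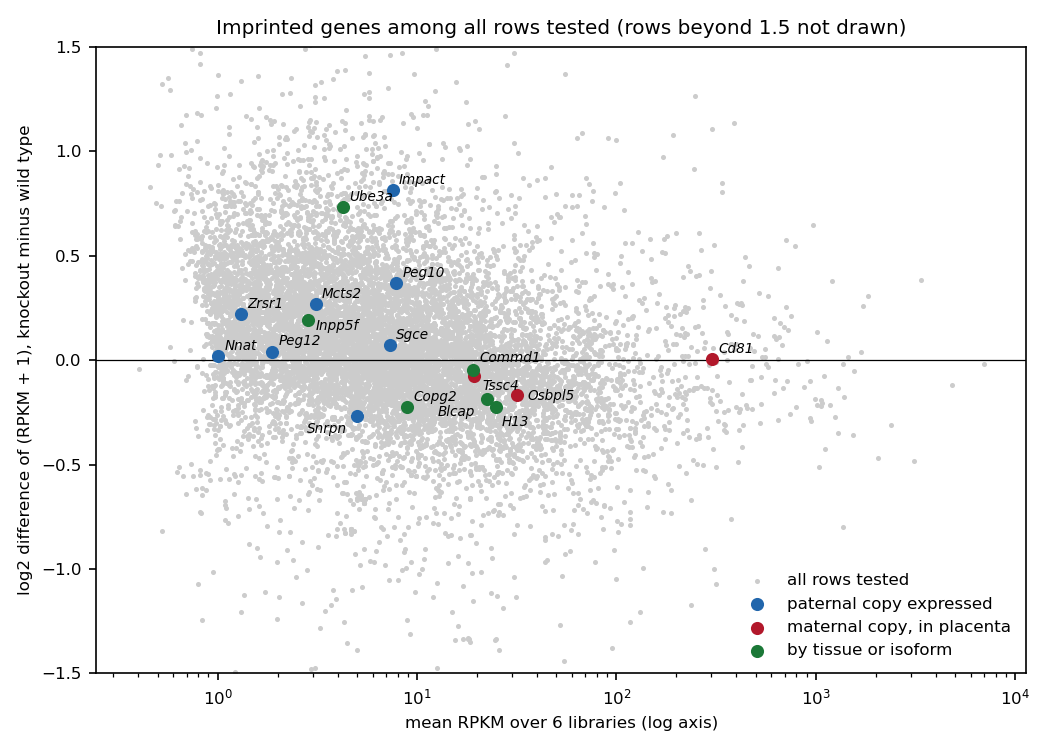
Log2 difference of (RPKM + 1), knockout minus wild type (vertical axis), against the mean RPKM of 6 libraries (horizontal log axis) for the rows tested (grey; the few outside the axis range are not drawn) and the 17 imprinted genes (coloured by parental copy). Impact and Ube3a lie at 0.82 and 0.73, and Cd81 lies on the zero line at the right.

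Of 28 listed regulators that set or keep imprints, 23 passed the filter, and of these 16 were called higher, 0 lower and 7 in neither direction in knockout against wild type, with a median of 0.41 (40.6% and 26.6% of all rows were called higher and lower, median 0.06). Hells and Arid4b passed the filter only through the knockout libraries, so that some difference was built in for them; without both, 14 of 21 were higher and 0 lower. In heterozygous against wild type 12 of the 23 were higher and 1 lower (35.5% and 17.1% of all rows), and in knockout against heterozygous again 12 higher and 1 lower (26.4% and 25.4%). Smchd1, a chromatin protein that keeps imprinted clusters and the inactive X chromosome silent, had 3.78 and 3.72 RPKM in knockout, 2.30 and 2.30 RPKM in heterozygous and 1.83 and 1.64 RPKM in wild-type libraries (0.80 ± 0.05 for knockout against wild type, limma adjusted p = 1.05e-05). Zfp445, a zinc finger gene that protects imprints along with Zfp57, had 1.98 and 2.04 RPKM in knockout, 1.32 and 1.27 RPKM in heterozygous and 0.831 and 0.855 RPKM in wild-type libraries (0.71 ± 0.05). Both rose stepwise without overlap, as did the other regulators named below. The regulators were named for a call at 0.5 or more on the log2 scale in knockout against wild type. Knockout above wild type was thus built in for them, and the stepwise order partly so. The order was found in 22.7% of all rows tested, which were not selected in this way. The chromatin remodeller gene Atrx rose by 0.93 ± 0.05, Hells by 0.74 ± 0.09, the histone demethylase gene Kdm1b by 0.65 ± 0.05, the Polycomb subunit gene Suz12 by 0.62 ± 0.05, Arid4b by 0.62 ± 0.06, Uhrf1, the guide of the maintenance methyltransferase, by 0.60 ± 0.05 and Arid4a by 0.54 ± 0.06. The 9 genes were called higher in knockout under quantile normalization and median scaling too. With the exception of Uhrf1 they had means under 3 RPKM, the level at which 55.3% of all rows were called higher. Over the list, quantile normalization gave 15 higher and 2 lower and median scaling 15 and 3 in knockout against wild type.

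Other genes of the imprinted clusters gave a background for the 17. Of 25 measured imprinted genes outside the list, 15 were higher and 7 lower in knockout against wild type (median 0.31), where 40.6% of all rows were higher and 26.6% lower. Among the 25, 2 passed the filter only through the knockout libraries, so that some difference was built in. Without these 2, 13 of 23 were higher and 7 lower. Another 1 passed only through wild type, and without it 15 of 24 were higher and 6 lower. In heterozygous against wild type 10 were higher and 6 lower (35.5% and 17.1% of all rows), and in knockout against heterozygous 13 higher and 7 lower (26.4% and 25.4%). Of 32 measured neighbours of the domains that are on neither list of imprinted genes, 13 were higher and 13 lower in knockout against wild type (median 0.001; 9 and 14 under quantile normalization, 11 and 16 under median scaling), 15 and 8 in heterozygous against wild type and 9 and 11 in knockout against heterozygous. Of the neighbours, 1 passed the filter only through wild type, and without it 13 of 31 were higher and 12 lower in knockout against wild type. The heterozygous split of the neighbours turned to 5 higher and 9 lower under quantile normalization and to 6 and 9 under median scaling. That of the other imprinted genes was 8 and 8 under either. The difference between these lists and the 17 genes was not tested.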

How the data were processed

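Poly(A) RNA of 6 libraries was read from 1 deposited table with 1 value per gene symbol and library. The labels' protocols name the dUTP method, a stranded preparation. The submitters' processing notes name TopHat and the mm9 build. Values came from coverage tracks, per the file headers; counting tool, annotation version and filters were not given in the sources used here. The header names no unit. The deposited values were identified as RPKM, scaled by the authors to gene length and library size, because values times gene length (RefSeq span plus 1 base) shared 1 step, the worth of a read: 61 short genes stood exactly on it in the first wild-type library, and with reads of 74 bases 32.6% of low values of short genes, spliced ones included, came out as whole aligned bases (tolerance 0.002). That step gave depths of 27.9M to 48.1M read equivalents and the reads behind low values. Read numbers assume the RefSeq span plus 1 base where that gave whole aligned bases in every library, and otherwise the smallest length that did. Where even the highest library then held only a few reads, the length that made the most read numbers whole was taken instead. Such low read numbers are therefore whole partly by the choice of length. Intervals and floors (3 reads) cover counting error only.

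Over 374, 351 and 330 genes of known length, the typical gene varied between replicates by 0.98 (knockout), 1.49 (heterozygous) and 1.11 (wild type) times the counting variance, so that knockout and wild-type replicates differed little beyond counting noise. A chi-square test still found a difference in each genotype, where 7, 7 and 4 genes were over 4 SD apart. Both libraries were kept as replicates, and their spread may be technical.

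Values were tested as log2(RPKM + 1), for rows that reached 1 RPKM in 2 or more libraries. The model was limma 3.58.1 in R 4.3.3 (3 group means, eBayes with an intensity trend, two-sided, Benjamini-Hochberg, threshold 0.05). The fit was also run on simulated data with known changes. There few genes changed, all had 1 length and replicates varied little beyond counting. These settings differ from the data, so that run cannot vouch for the calls reported here. Exact permutation of 2 against 2 libraries cannot go below p = 0.333 and was not used. Alternatives changed the pseudocount, filter, scaling, samples, variance trend and replicate block, and left out each library. The genes and lists were chosen with earlier results of these data known. Every one of the 34 genes is named; of other genes, those sharing a transcript, host, domain or close copy with one of the 34, and imprint regulators called at 0.5 or more on the log2 scale in knockout against wild type. Chromosomes and neighbours came by symbol from RefSeq on GRCm38.p6; no coordinates were converted. Protein identity of close copies was not analysed here.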

Additional observations from a re-analysis of the deposited data

How the results depend on the processing

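Of the 750 recomputed differences of single genes, 678 kept their direction and side of the threshold, 36 lost a call, 11 gained one and 25 changed sign. Counts of called genes moved by over 1.5 times in these cases. With a filter at 5 RPKM, which leaves 12 of the genes, 3 were higher in knockout and 3 in heterozygous against wild type. Over all 6788 rows at that filter 2291 and 2280 were higher. All 36 differences of the remaining genes kept their direction and side of the threshold there. After median scaling 8 were lower in knockout and 6 in heterozygous against wild type (3891 and 2839 of all 10897 rows). The cause was not tested. Leaving out single libraries gave 1 to 2 lower in heterozygous against wild type. Within 1.5 times of the reported counts, it gave 5 to 6 higher and 4 to 7 lower in knockout against wild type. A group left with 1 library is assumed to vary like the others. Signs that changed after median scaling were those of Sgce (-0.00663), Peg12 (-0.04), Cd81 (-0.08) and Nnat (-0.06) in knockout against wild type, and of Cd81 (-0.07) and Blcap (-0.05) in heterozygous against wild type. After quantile normalization they were those of Sgce (-0.00609), Peg12 (-0.19), Zrsr1 (-0.00673), Nnat (-0.27) and Inpp5f (-0.02) in knockout against wild type. They were also those of Zrsr1 (-0.000693) in heterozygous against wild type, and of Cd81 (0.00926), Zrsr1 (-0.00604) and Inpp5f (-0.03) in knockout against heterozygous. Without single libraries Cd81 ranged from -0.00705 to 0.02 in knockout and from -0.00674 to 0.02 in heterozygous against wild type, and from -0.00635 to 0.00572 in knockout against heterozygous. In knockout against wild type Commd1 ranged from -0.12 to 0.02 and Nnat from -0.04 to 0.08; Mcts2 ranged from -0.15 to 0.02 in knockout against heterozygous. The causes were not tested.

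Libraries of the same replicate number did not deviate together (correlations of 0.065, -0.062 and -0.088 over 10897 genes). As knockout and wild-type replicates differed little beyond counting noise, these correlations cannot show whether such libraries shared a source. The labels do not say what the number marks. With the replicate block 6 genes were higher and 5 lower in knockout against wild type, 7 and 2 in heterozygous against wild type, and 2 and 6 in knockout against heterozygous. Depth limits the 17 genes below the filter, most of which rest on under 20 reads in each library.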
